A study of Mus musculus with 12 samples.

Results

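The transcripts described here are those of 9 genes at the output end of canonical WNT signalling in mouse embryonic stem cells. They are the target genes Axin2, Sp5, Cdx1, Nkd1 and Lgr5, the DNA-binding factors Tcf7, Lef1 and Tcf7l1, and Ctnnb1, which encodes β-catenin. Each was found by its gene symbol among the 55487 genes of the count table, all 9 were present, and 8 had enough reads to be tested together with 18134 genes in all. Lgr5 did not pass that filter and is given as read counts. The cells were the line E14 Tg2a, and polyadenylated RNA was sequenced from 4 groups of 3 libraries each, with total counts between 27146744 and 42204511 per library. EpiLC KO cells were independent Pcbp1 knockout clones kept for 48 h on fibronectin in N2B27 with bFGF at 12 ng/ml, activin A at 20 ng/ml and 1% KOSR, in which the cells become epiblast-like (EpiLCs). EpiLC WT cells were control clones (called Scr in the series text) in the same medium. Naive KO and naive WT cells were Pcbp1 knockout and control clones in N2B27 with LIF, the MEK inhibitor PD0325901 at 1 µM and the GSK3 inhibitor CHIR99021 at 3 µM. Only the naive medium thus held the GSK3 inhibitor, and its effect cannot be told apart from that of the other differences between the media.

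In the canonical pathway, a destruction complex built on AXIN and APC holds β-catenin for phosphorylation by GSK3, which marks it for degradation. WNT ligands, or direct inhibition of GSK3, let β-catenin accumulate and bind TCF and LEF factors on DNA. TCF7 and LEF1 act mainly with β-catenin as activators, whereas TCF7L1 acts mainly as a repressor, in mouse embryonic stem cells of several pluripotency genes. Axin2, Sp5, Nkd1 and Lgr5 are widely used readouts of the pathway, and Cdx1 is a direct target in the early embryo and the gut.

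Pcbp1, the targeted gene, was at 272 ± 26.5 CPM (counts scaled to the size of each library; SD, n = 3 per group here and throughout) in EpiLC KO and 598 ± 90.3 CPM in EpiLC WT, and at 300.2 ± 4.25 CPM in naive KO and 456 ± 32.8 CPM in naive WT. Summed naive pluripotency markers (Esrrb, Klf4, Zfp42 and 5 others) spanned 133 to 267 CPM in EpiLC KO, 158 to 556 CPM in EpiLC WT, 2312 to 2486 CPM in naive KO and 2410 to 2458 CPM in naive WT. Summed EpiLC markers (Fgf5, Dnmt3b, Otx2 and 3 others) were at 2534 to 2594 CPM in EpiLC KO, 2102 to 3709 CPM in EpiLC WT, 98.5 to 166 CPM in naive KO and 92.5 to 146 CPM in naive WT. EpiLC WT replicate 2 stood apart: it held the highest naive sum and the lowest EpiLC sum of the EpiLC libraries, with Esrrb at 215 CPM against 63.7 and 56.3 CPM in replicates 1 and 3. Results that use EpiLC WT are therefore also given without it where a call changes or a value moves by over 1.5 times. Fewer cells of a type and less RNA per cell cannot be told apart in such bulk libraries.

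Upstream sequences are shown for 3 genes: Sp5 and Axin2, the strongest and a weaker case of lower transcript levels in EpiLCs, and Lef1, the member that was highest in EpiLCs relative to naive cells. Each is the 250 bases before the RefSeq transcription start on GRCm38.p6, on the strand of the gene, and capitals mark a match to a TCF/LEF motif. The 4 motifs searched, on both strands, were the letters CTTTG followed by AA, AT, TA or TT, and matches within a window did not overlap.
Sp5, chr2:70474673-70474922, plus strand: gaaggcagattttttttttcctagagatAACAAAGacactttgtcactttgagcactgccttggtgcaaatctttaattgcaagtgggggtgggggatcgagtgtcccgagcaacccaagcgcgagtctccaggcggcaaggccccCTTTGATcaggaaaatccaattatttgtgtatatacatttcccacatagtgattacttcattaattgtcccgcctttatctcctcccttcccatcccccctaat
Axin2, chr11:108920099-108920348, plus strand: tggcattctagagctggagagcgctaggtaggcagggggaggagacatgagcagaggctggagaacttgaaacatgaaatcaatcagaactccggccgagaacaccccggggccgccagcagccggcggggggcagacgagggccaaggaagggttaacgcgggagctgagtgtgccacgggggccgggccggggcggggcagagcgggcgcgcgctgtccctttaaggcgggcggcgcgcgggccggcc
Lef1, chr3:131110047-131110296, plus strand, the most upstream of its starts: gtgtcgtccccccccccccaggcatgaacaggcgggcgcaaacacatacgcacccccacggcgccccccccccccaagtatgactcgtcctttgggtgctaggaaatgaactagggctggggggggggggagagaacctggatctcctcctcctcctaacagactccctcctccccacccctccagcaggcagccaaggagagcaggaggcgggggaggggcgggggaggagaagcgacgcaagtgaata
The Sp5 window holds AACAAAG, a match on the opposite strand, from 222 to 216 bases before the start, and CTTTGAT from 104 to 98 bases before it. The Axin2 window and this Lef1 window hold no match. Of the 9 genes, 7 had a RefSeq window, with 12 windows in all because Lef1, Tcf7 and Ctnnb1 have several starts, and 2 of the 12 held a match. The second was at an internal Lef1 start, with TACAAAG from 147 to 141 bases before it. Among all 32851 windows of this length, 14.8% held at least 1 of the 4 motifs, so a match is a description of the letters and no evidence of binding.

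The comparison of EpiLCs with naive cells shows how the pathway's readouts differed between these cells in each genotype. The targets Axin2, Sp5 and Cdx1 were lower in EpiLCs than in naive cells, whereas the target Nkd1 and the factor gene Lef1 were higher. In KO clones 3 of the 8 tested genes rose and 3 fell (75%, where 55.2% of all tested genes were called, 27.1% as higher and 28.1% as lower). In WT clones 2 rose and 3 fell (62.5%, against 52.7% of all tested genes, 26.4% as higher and 26.3% as lower). The KO and WT values come from separate libraries. Over all tested genes the median log2 fold change was -0.04 in KO and -0.01 in WT.

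**Figure D1:**
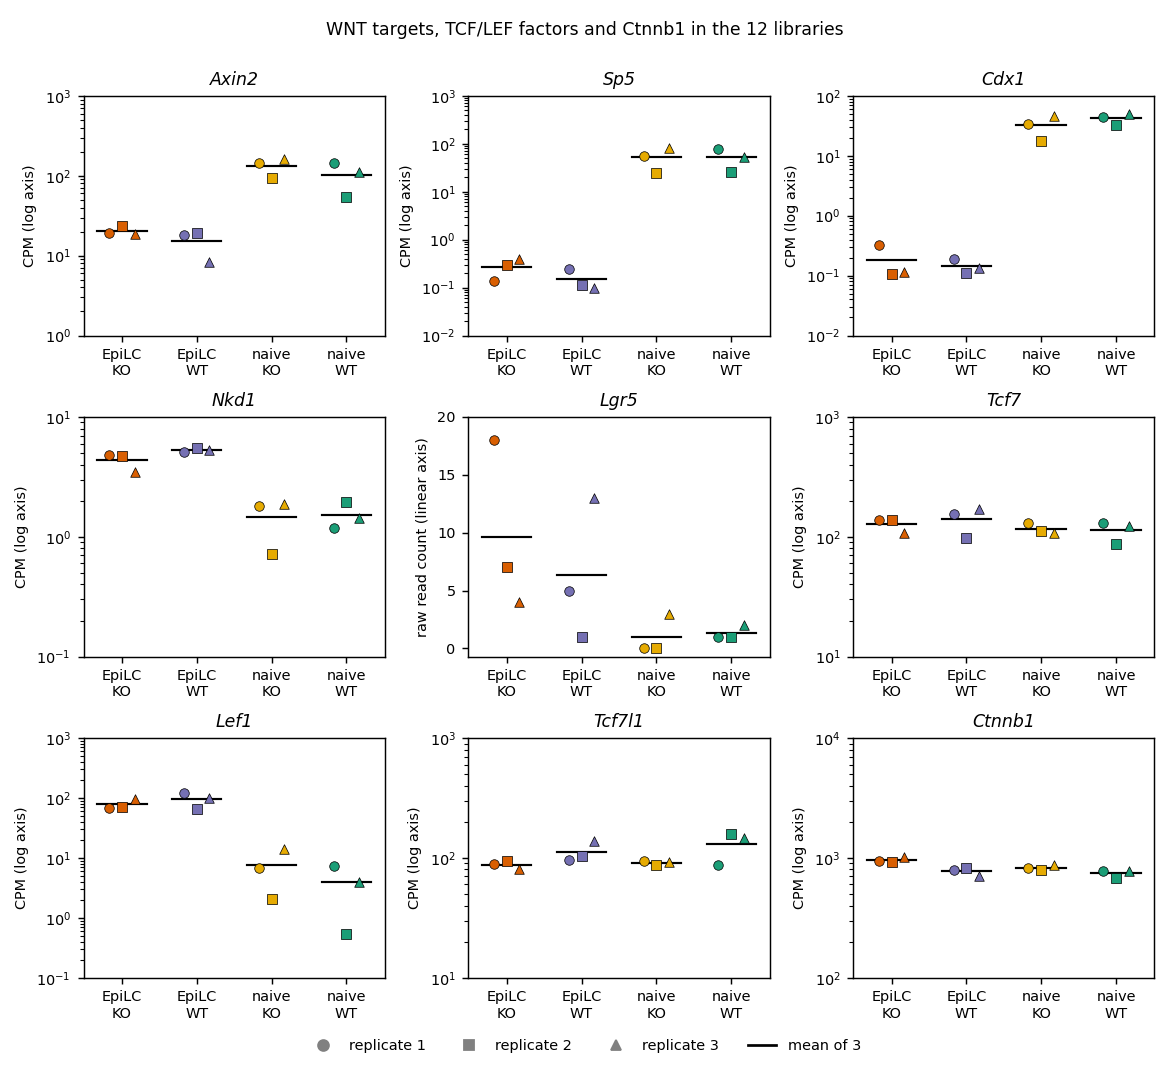
Levels of the 9 genes in each of the 12 libraries, as CPM on log axes except Lgr5, which is given as raw read counts on a linear axis. Points are libraries, marker shapes are replicate numbers and bars are means of 3. Axin2, Sp5 and Cdx1 lie lower and Lef1 and Nkd1 higher in all 6 EpiLC libraries than in all 6 naive ones.

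Axin2 encodes a scaffold of the destruction complex and is itself induced by the pathway as a feedback inhibitor. It was at 18.9, 23.6 and 18.9 CPM in EpiLC KO replicates 1 to 3, and at 143, 93.2 and 160 CPM in naive KO. In WT clones it was at 18.2, 19.3 and 8.25 CPM in EpiLCs and at 143, 54.3 and 113 CPM in naive cells. The groups did not overlap in either genotype, and every EpiLC library still held at least 248 Axin2 reads. Axin2 fell by 2.69 ± 0.368 on the log2 scale in KO (SE, edgeR adjusted p = 5.23e-05) and fell by 2.76 ± 0.371 in WT (adjusted p = 5.24e-05).

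Sp5 encodes a zinc finger repressor that dampens the expression of other WNT targets. It was at 0.14, 0.29 and 0.39 CPM in EpiLC KO and at 54.7, 24.9 and 83.0 CPM in naive KO. The WT clones had 0.24, 0.11 and 0.10 CPM in EpiLCs and 77.0, 26.3 and 51.9 CPM in naive cells. Sp5 was thus close to undetected in EpiLCs, with 31 reads over the 3 EpiLC KO libraries and 15 over the 3 EpiLC WT libraries. It fell by 7.64 ± 0.609 on the log2 scale in KO (edgeR adjusted p = 6.42e-07) and fell by 8.32 ± 0.659 in WT (adjusted p = 7.05e-07).

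Cdx1 encodes a homeobox factor of posterior identity. It was at 0.32, 0.11 and 0.11 CPM in EpiLC KO and at 33.6, 17.4 and 45.7 CPM in naive KO. Its WT levels were at 0.19, 0.11 and 0.13 CPM in EpiLCs and at 44.2, 32.1 and 49.6 CPM in naive cells. As for Sp5, few EpiLC reads remained, 22 over the KO libraries and 14 over the WT libraries. Cdx1 fell by 7.41 ± 0.462 on the log2 scale in KO (edgeR adjusted p = 8.16e-08) and fell by 8.11 ± 0.489 in WT (adjusted p = 7.49e-08).

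Nkd1, which encodes an inhibitor that binds Dishevelled and is itself a target of the pathway, moved the other way. It was at 4.80, 4.76 and 3.46 CPM in EpiLC KO and at 1.81, 0.72 and 1.88 CPM in naive KO. WT clones had Nkd1 at 5.11, 5.49 and 5.25 CPM in EpiLCs and at 1.19, 1.95 and 1.43 CPM in naive cells. Its level was low throughout, from 26 to 209 reads a library, with no overlap between the media. Nkd1 rose by 1.56 ± 0.331 on the log2 scale in KO (edgeR adjusted p = 0.00145) and by 1.79 ± 0.332 in WT (adjusted p = 6.32e-04).

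Lgr5 encodes a receptor for R-spondins and is a target best known from intestinal stem cells. It had 18, 7 and 4 reads in EpiLC KO and 0, 0 and 3 reads in naive KO. In WT clones it had 5, 1 and 13 reads in EpiLCs and 1, 1 and 2 reads in naive cells. Most libraries thus held too few reads to measure it. When genes with low counts were kept, 36121 genes were tested and Lgr5 passed between EpiLC KO and naive KO (edgeR adjusted p = 0.0101) but not between EpiLC WT and naive WT (adjusted p = 0.0547), and the difference between these comparisons did not pass (adjusted p = 1.00).

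The TCF and LEF factors behaved unlike each other. Lef1 was at 67.7, 70.5 and 97.2 CPM in EpiLC KO and at 6.77, 2.06 and 13.9 CPM in naive KO. WT libraries had it at 123, 65.8 and 98.7 CPM in EpiLCs and at 7.24, 0.54 and 3.90 CPM in naive cells. The lowest EpiLC library was well above the highest naive one, and the naive libraries were widely spread. Lef1 rose by 3.38 ± 0.681 on the log2 scale in KO (edgeR adjusted p = 0.00103) and by 4.62 ± 0.728 in WT (adjusted p = 1.85e-04). The difference between the genotypes did not pass (interaction -1.24 ± 0.910, adjusted p = 0.629). Of its exon bases, 13.7% are shared with Gm43352, a gene annotated on the opposite strand, and by the defaults of a counting step that ignored strand, reads over such shared bases were not counted.

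Tcf7, which encodes TCF1, was at similar levels in both media. It was at 139, 138 and 107 CPM in EpiLC KO and at 131, 112 and 108 CPM in naive KO, with a log2 difference of 0.13 ± 0.201 (edgeR adjusted p = 0.615; 95% interval -0.34 to 0.59). In WT clones it was at 156, 98.5 and 169 CPM in EpiLCs and at 131, 86.4 and 124 CPM in naive cells, with a log2 difference of 0.31 ± 0.201 (adjusted p = 0.21). Same-numbered libraries of a genotype deviated together across the media, and in a fit with the clone as a block the WT difference of Tcf7 was 0.30 and passed (adjusted p = 0.0188). It was also called without EpiLC WT replicate 2 (0.51, adjusted p = 0.0232).

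Tcf7l1, which encodes TCF3, was at 88.7, 94.3 and 80.6 CPM in EpiLC KO and at 93.4, 86.8 and 91.5 CPM in naive KO. In WT clones it was at 95.2, 104 and 139 CPM in EpiLCs and at 86.8, 157 and 148 CPM in naive cells. The naive WT libraries were split, with replicate 1 as low as the KO libraries. The log2 difference between the media was -0.04 ± 0.194 in KO (edgeR adjusted p = 0.865) and -0.21 ± 0.194 in WT (adjusted p = 0.376). Without naive WT replicate 1 the WT difference passed (-0.45, adjusted p = 0.0247).

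Ctnnb1 was by far the most abundant of the 9 transcripts. It was at 947, 924 and 1022 CPM in EpiLC KO and at 816, 789 and 871 CPM in naive KO, without overlap. In WT clones it was at 800, 819 and 711 CPM in EpiLCs and at 783, 676 and 771 CPM in naive cells, which overlap. It rose in KO by 0.22 ± 0.0875 on the log2 scale (edgeR adjusted p = 0.0441). It did not pass when low-count genes were kept (adjusted p = 0.135), nor without naive KO replicate 1 (0.0854) or 2 (0.0968) or EpiLC KO replicate 1 (0.0694), 2 (0.0538) or 3 (0.146). In WT the difference was 0.06 ± 0.0875 (adjusted p = 0.568). Transcript levels do not show the amount or the stability of β-catenin protein, the step that GSK3 controls, and 15.1% of the exon bases of Ctnnb1 are shared with Ulk4 and Mir7090, with the same consequence for counting.

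Levels of different genes were compared as CPM per kb of annotated exon. In EpiLC KO the order was Ctnnb1 (186 ± 9.87), Tcf7 (42.3 ± 6.05), Tcf7l1 (22.4 ± 1.77), Lef1 (8.93 ± 1.85), Axin2 (3.72 ± 0.488), Nkd1 (0.952 ± 0.166), Sp5 (0.131 ± 0.0615), Cdx1 (0.103 ± 0.0701) and Lgr5 (0.0231 ± 0.0153), in which Sp5 and Cdx1 lay within their spread of each other. EpiLC WT had the same order, with Ctnnb1 at 149.6 ± 11.1 CPM per kb and Lef1 at 10.9 ± 3.26 CPM per kb, except that Cdx1 (0.0825 ± 0.0224) came before Sp5 (0.0720 ± 0.0375), again within their spread. In naive KO the order was Ctnnb1 (159 ± 8.07), Tcf7 (38.7 ± 4.02), Sp5 (25.8 ± 13.8), Axin2 (24.0 ± 6.34), Tcf7l1 (23.1 ± 0.879), Cdx1 (18.4 ± 8.11), Lef1 (0.861 ± 0.677), Nkd1 (0.323 ± 0.142) and Lgr5, and the 5 genes from Tcf7 to Cdx1 overlapped their neighbours. In naive WT, Ctnnb1 (143 ± 11.3 CPM per kb) led Tcf7 (37.7 ± 7.91), Tcf7l1 (33.3 ± 9.73), Sp5 (24.6 ± 12.1), Cdx1 (24.0 ± 5.10) and Axin2 (18.8 ± 8.19), whose neighbours were within their spread, and Lef1 (0.443 ± 0.381) and Nkd1 (0.335 ± 0.0861) followed. Sp5, Cdx1 and Axin2 were thus among the factors' own range in naive cells and below Lef1 in EpiLCs.

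**Figure D2:**
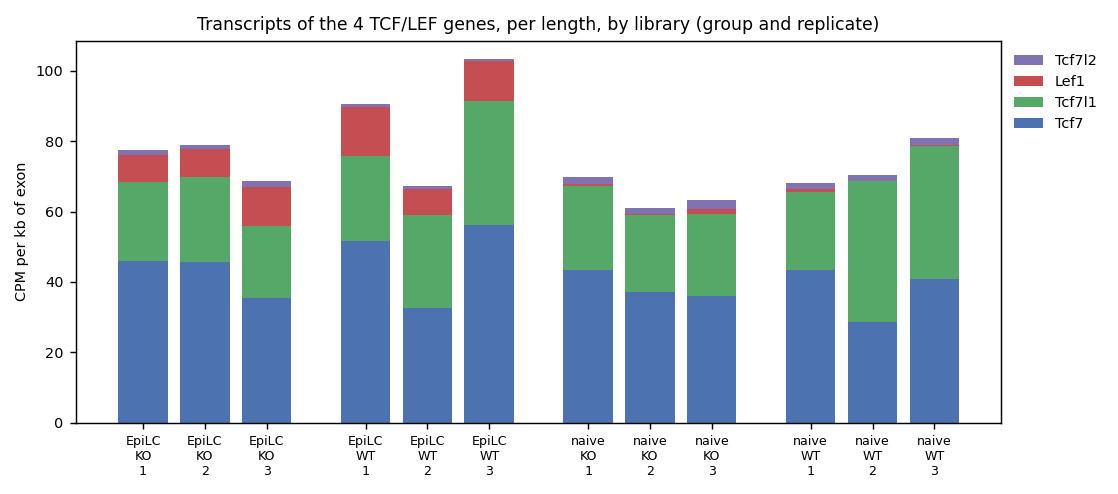
Stacked levels of Tcf7, Tcf7l1, Lef1 and Tcf7l2 in each library, as CPM per kb of exon. Lef1 forms a visible share in all 6 EpiLC libraries and almost none of the bar in the 6 naive libraries, while Tcf7 and Tcf7l1 make up most of every bar.

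Within the TCF/LEF family, which also includes Tcf7l2 (TCF4, a factor best known from the gut), the sum per kb was 75.1 ± 5.60 CPM per kb in EpiLC KO, 87.1 ± 18.4 in EpiLC WT, 64.8 ± 4.62 in naive KO and 73.2 ± 6.79 in naive WT. Lef1 made up 12.1% ± 3.50 of that sum in EpiLC KO, 12.5% ± 2.56 in EpiLC WT, 1.33% ± 1.07 in naive KO and 0.615% ± 0.564 in naive WT. Tcf7 made up 56.2% ± 4.14, 53.2% ± 4.27, 59.8% ± 2.81 and 51.6% ± 11.6 in the same 4 groups, and Tcf7l1 29.8% ± 0.653, 33.4% ± 6.33, 35.7% ± 1.45 and 45.2% ± 12.2. Tcf7l2 made up 1.93% ± 0.544, 0.837% ± 0.180, 3.20% ± 0.765 and 2.50% ± 0.195. The Lef1 share did not overlap between the 6 EpiLC and the 6 naive libraries. Within each genotype the Tcf7l2 share did not overlap between the media either, at 1.49 to 2.54% in EpiLC KO and 2.69 to 4.08% in naive KO, and 0.633 to 0.969% in EpiLC WT and 2.29 to 2.67% in naive WT. The Tcf7l1 share did not overlap in KO, at 29.2 to 30.5% in EpiLCs and 34.1 to 36.8% in naive cells. Shares of a sum depend on each other, and the level of Tcf7l1 itself was similar. It was at 22.4 ± 1.77 CPM per kb in EpiLC KO and 23.1 ± 0.879 in naive KO.

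KO and WT clones were compared within each medium to see whether Pcbp1 knockout moved these genes. The Pcbp1 transcript was lower in KO clones but still present, and these RNA data do not show the protein. In EpiLCs, 1 of the 8 tested genes was called (12.5%, against 15.1% of all tested genes, 7.22% as higher and 7.86% as lower), and this was Ctnnb1. In naive cells edgeR called 0 of 8, where 9.23% of all tested genes were called, 4.27% as higher and 4.95% as lower. There 1 gene, Tcf7l1, had an unadjusted p under 0.05, and DESeq2 also called 0. For the interaction, edgeR and DESeq2 called 0 of 8, with 0 at an unadjusted p under 0.05, where 0.381% of all tested genes were called, 0.259% as higher and 0.121% as lower. The counts behind these shares rested in part on single libraries. Between EpiLC KO and EpiLC WT, 2734 genes were called, but 1375 without EpiLC KO replicate 1, 1814 without EpiLC KO replicate 3 and 1754 without EpiLC WT replicate 3. Between naive KO and naive WT there were 1673, but 678 without naive KO replicate 1, and 1115 or 850 when replicate 1 or replicate 3 of naive WT was left out. The interaction had 69 calls, and 3 to 149 when single libraries were left out.

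**Figure D3:**
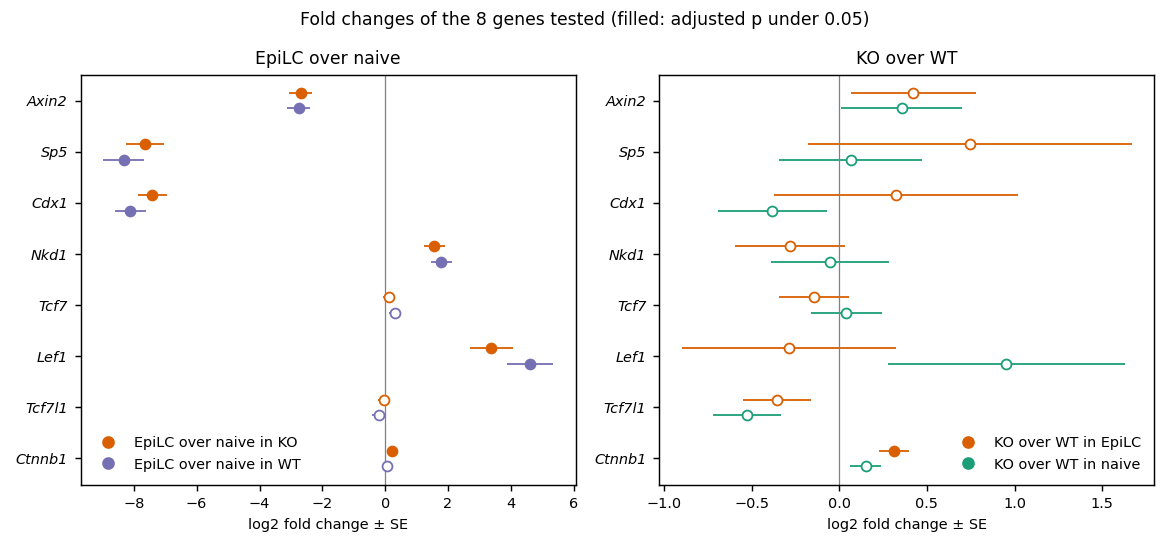
Log2 fold changes with SE of the 8 tested genes, EpiLC over naive on the left and KO over WT on the right, with filled points where the edgeR adjusted p was under 0.05. Sp5 and Cdx1 lie near -8 in WT and Lef1 above 3 in both genotypes on the left, and Ctnnb1 in EpiLCs is the single filled point on the right.

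Ctnnb1 rose in EpiLC KO relative to EpiLC WT by 0.31 ± 0.0876 on the log2 scale (edgeR adjusted p = 0.032), with every KO library (924 to 1022 CPM) above every WT library (711 to 819 CPM). The call was near the threshold. It ended when low-count genes were kept (adjusted p = 0.0601), when only the EpiLC libraries were fitted (0.0595), and without EpiLC WT replicate 1 (0.0564) or 3 (0.12) or EpiLC KO replicate 1 (0.074), 2 (0.0526) or 3 (0.109), and it held without EpiLC WT replicate 2 (0.35, adjusted p = 0.029). In naive cells Ctnnb1 was at 789 to 871 CPM in KO and 676 to 783 CPM in WT, again without overlap, with a log2 difference of 0.15 ± 0.0875 that did not pass (adjusted p = 0.329).

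Tcf7l1 was lower in every EpiLC KO library than in every EpiLC WT library, with a log2 difference of -0.36 ± 0.194 that did not pass (edgeR adjusted p = 0.238; 95% interval -0.81 to 0.09). In naive cells the difference was -0.53 ± 0.194 (adjusted p = 0.115; 95% interval -0.97 to -0.08), and naive WT replicate 1, at 86.8 CPM, lay within the KO range. The naive difference passed when low-count genes were kept (adjusted p = 0.0142) and without naive WT replicate 1 (-0.78, adjusted p = 0.0112).

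The remaining genes gave wide intervals, except Tcf7. In EpiLCs the log2 difference of KO from WT was 0.42 for Axin2 (95% interval -0.39 to 1.24), 0.74 for Sp5 (-1.39 to 2.88), 0.32 for Cdx1 (-1.28 to 1.93), -0.14 for Tcf7 (-0.61 to 0.32), -0.29 for Lef1 (-1.70 to 1.12) and -0.28 for Nkd1 (-1.01 to 0.44), although Nkd1 did not overlap between the genotypes. In naive cells it was 0.36 for Axin2 (-0.44 to 1.15), 0.07 for Sp5 (-0.88 to 1.01), -0.38 for Cdx1 (-1.09 to 0.33), 0.04 for Tcf7 (-0.42 to 0.50), 0.95 for Lef1 (-0.61 to 2.51) and -0.05 for Nkd1 (-0.83 to 0.72). Differences within these intervals were therefore not excluded with 3 clones a group. The decrease of Sp5, Cdx1 and Axin2 in EpiLC medium was present in KO and WT clones alike in sign, and the interactions were 0.68 ± 1.01 for Sp5 (edgeR adjusted p = 0.849), 0.71 ± 0.764 for Cdx1 (0.772) and 0.07 ± 0.493 for Axin2 (0.979).

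The naive libraries differed among themselves more in Axin2, Sp5, Cdx1 and Lef1 than in Tcf7, Tcf7l1 and Ctnnb1. The lowest levels of Axin2, Sp5, Cdx1 and Lef1 were all in naive KO replicate 2 and naive WT replicate 2. The highest of the 6 naive libraries exceeded the lowest 2.96-fold for Axin2, 3.33-fold for Sp5, 2.85-fold for Cdx1 and 25.5-fold for Lef1, but 1.52-fold for Tcf7, 1.81-fold for Tcf7l1 and 1.29-fold for Ctnnb1. Over 10271 genes with a mean of at least 5 CPM in naive cells the median of that ratio was 1.41, and Axin2, Sp5, Cdx1 and Lef1 lay at percentiles 93.8, 95.3, 93.2 and 99.8 of them. T (brachyury), a WNT target and primitive streak marker, showed the same low libraries, at 22.4, 3.48 and 17.8 CPM in naive KO replicates 1 to 3 and 9.03, 0.77 and 4.38 CPM in naive WT. The target Nkd1 followed them in 1 of the 2 only: with a 2.70-fold range, it was lowest in naive KO replicate 2 (0.72 CPM) and highest in naive WT replicate 2 (1.95 CPM). T was named after its values were seen, and how many of the 20 targets in its list share this pattern was not counted. In naive KO, Tnfrsf19 of that list lay at 89.5 to 96.1 CPM in all 3 libraries. The labels give no batch that naive KO replicate 2 and naive WT replicate 2 share, and the cause was not tested. Without naive WT replicate 2 the naive log2 difference of KO from WT was 0.02 for Axin2, -0.28 for Sp5 and 0.42 for Lef1, and without naive KO replicate 2 it was 0.53, 0.39 and 1.38, with none called.

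**Figure D4:**
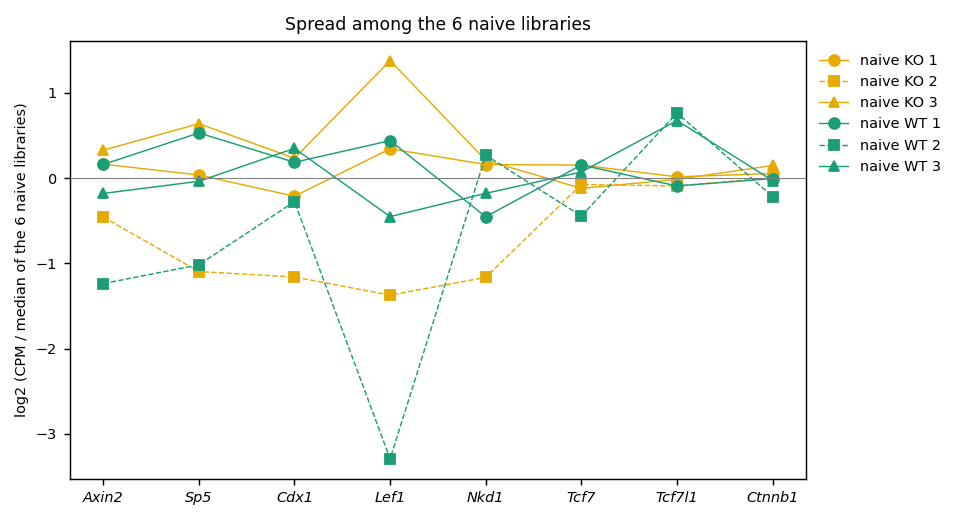
Level of 8 genes in each naive library relative to the median of the 6 naive libraries, on a log2 scale, with dashed lines for the replicate 2 libraries. The dashed lines lie below 0 for Axin2, Sp5, Cdx1 and Lef1, with Lef1 in naive WT replicate 2 lowest, for Nkd1 1 lies below and 1 above 0, and all lines come together at Ctnnb1.

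Over the 12 libraries, the genes whose log2 CPM was most like that of each member, among about 10128 genes, were Ntn1 and Vta1 for Axin2 (Pearson r = 0.977 for both), Fkbp15 and Arhgef10l for Sp5 (0.995 for both), and Piga and Lap3 for Cdx1 (0.993 for both). For the factors they were Cnnm3 and Ppp2r2a for Tcf7 (0.891 and 0.890), Zfyve9 and S100pbp for Tcf7l1 (0.873 and 0.830), and Pnp and B3gnt7 for Lef1 (0.985 and 0.982). They were Nav2 and Fam83g for Nkd1 (0.977 and 0.968) and Cd80 and Fra10ac1 for Ctnnb1 (0.941 and 0.919). For members that differ between the media, the 12 points fall into a naive and an EpiLC cluster.

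Around these genes, 115 further genes were listed and are called pathway genes here, of which 99 were tested. They include 6 genes that TCF7L1 represses in mouse embryonic stem cells, which are described below and are not components of the pathway. Between EpiLC and naive cells, 35 rose and 37 fell in KO (72.7%, against 55.2% of all tested genes) and 33 rose and 36 fell in WT (69.7%, against 52.7%). The median log2 fold change was -0.03 in KO and -0.05 in WT. Of the ligands, 5 of 11 tested rose and 1 fell in each genotype, among them Wnt8a (4.94 ± 0.539 in KO and 6.54 ± 0.662 in WT) and Wnt9a (3.18 ± 0.285 in KO and 2.87 ± 0.307 in WT). The sizes of these 2 changes rest on few naive reads. Wnt8a had 6 to 23 reads a library in naive KO and 1 to 3 in naive WT. Wnt9a had 9 to 15 in naive KO and 6 to 7 in naive WT. Of the receptors and R-spondins, 11 of 18 rose and 3 fell in each genotype, with Fzd7, a Frizzled receptor, at 156, 181 and 186 CPM in EpiLC KO and 23.3, 33.4 and 14.3 CPM in naive KO, and at 208, 192 and 209 CPM in EpiLC WT and 22.5, 20.2 and 22.4 CPM in naive WT. Fzd5 fell by 1.96 ± 0.10 in KO and fell by 2.34 ± 0.102 in WT. The fold changes given for these genes are on the log2 scale from edgeR, with SE and adjusted p under 0.05.

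Secreted antagonists were mostly lower in EpiLCs, with 6 of 10 down and 3 up in KO (28.1% and 27.1% of all tested genes) and 6 down and 2 up in WT (26.3% and 26.4%). Without EpiLC KO replicate 2 the KO counts were 4 down and 1 up. Sfrp1, which binds WNT ligands, fell by 3.55 ± 0.340 on the log2 scale in KO and fell by 4.74 ± 0.360 in WT, and Dkk3 fell by 3.21 ± 0.295 in KO and fell by 3.24 ± 0.297 in WT, whereas Sfrp2 rose by 3.03 ± 0.405 in KO and by 2.94 ± 0.399 in WT. Of 19 genes of the destruction complex and its regulators, 7 rose and 8 fell in KO and 6 rose and 7 fell in WT. Dvl3, a Dishevelled gene, fell by 0.78 ± 0.10 in KO and fell by 0.96 ± 0.101 in WT. Among the nuclear cofactors, the Groucho-type corepressor Tle4 rose by 1.45 ± 0.194 in KO and by 1.33 ± 0.193 in WT, and the shorter family member Tle5 fell by 1.84 ± 0.232 in KO and fell by 1.83 ± 0.231 in WT. Of 20 other targets, Myc rose by 4.69 ± 0.395 in KO and 4.23 ± 0.384 in WT and Nkd2, the relative of Nkd1, by 4.63 ± 0.397 in KO and 4.19 ± 0.369 in WT. The list of targets therefore did not move one way: 6 rose and 6 fell in KO, and 5 rose and 8 fell in WT.

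Genes that TCF7L1 represses in mouse embryonic stem cells were lower in EpiLCs, 6 of 6 in KO (median log2 fold change -4.11) and 5 of 6 in WT (-3.76), where 28.1% of all tested genes were called lower in KO and 26.3% in WT. Nanog was at 88.4, 70.2 and 70.2 CPM in EpiLC KO and 749.9, 813 and 664 CPM in naive KO, and at 34.8, 93.5 and 36.8 CPM in EpiLC WT and 811, 844 and 807 CPM in naive WT. Tfcp2l1 fell by 5.65 ± 0.340 on the log2 scale in KO and fell by 5.29 ± 0.334 in WT. Without EpiLC WT replicate 2, 6 of 6 were called lower in WT, with log2 fold changes of -5.88 for Tfcp2l1 and -4.52 for Nanog, against -3.90 for Nanog with it. The list also holds markers of naive pluripotency such as Esrrb, so it is not independent of the change of cell state, and Tcf7l1 itself was not called between the media with all libraries in the fit.

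Between KO and WT in EpiLCs, 9 of the 99 pathway genes rose and 6 fell (15.2%, against 15.1% of all tested genes). The largest increase among them was that of Dkk1, a secreted antagonist that blocks LRP coreceptors and is itself a WNT target. Dkk1 was at 2.30, 3.28 and 1.97 CPM in EpiLC KO and 0.13, 0.49 and 0.13 CPM in EpiLC WT, without overlap, and rose by 3.36 ± 0.603 on the log2 scale (edgeR adjusted p = 0.00378). Sox17, an endoderm factor that also binds β-catenin, was at 0.85, 1.48 and 1.13 CPM in EpiLC KO and 0.11, 0.34 and 0.20 CPM in EpiLC WT and rose by 2.45 ± 0.433 (adjusted p = 0.00348). Endoderm markers moved with these genes: 7 of 8 rose in EpiLC KO, their sum was 35.2 to 46.7 CPM in EpiLC KO and 7.09 to 14.2 CPM in EpiLC WT, none of the 8 was at 0, and Sox17 is in this list too. Of 7 tested markers of primitive streak and mesoderm, 3 rose and 0 fell, and the sum of all 8 listed was 18.1 to 26.8 CPM in EpiLC KO and 9.88 to 18.8 CPM in EpiLC WT, with none at 0. Summed neuroectoderm markers were at 42.0 to 75.5 CPM in EpiLC KO and 17.8 to 45.0 CPM in EpiLC WT, with 1 of 5 called higher. Fibroblast sums were 19.2 to 33.2 CPM in EpiLC KO and 9.97 to 20.0 CPM in EpiLC WT. Trophoblast sums were 4.25 to 4.84 and 5.35 to 9.15 CPM, and 0 markers of these 2 lists were called. Without EpiLC WT replicate 2 the log2 fold change of Dkk1 was 4.2. The part of these markers in the result was not tested.

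Tcf7l2 was at 12.1, 10.5 and 15.5 CPM in EpiLC KO and 7.34, 5.79 and 5.82 CPM in EpiLC WT, and rose by 1.00 ± 0.201 on the log2 scale (edgeR adjusted p = 0.00663). Tle1, a Groucho-type corepressor, was at 19.3, 20.8 and 21.8 CPM in EpiLC KO and 30.2, 45.1 and 32.8 CPM in EpiLC WT, and fell by 0.80 ± 0.143 (adjusted p = 0.00364). Sp8, a relative of Sp5, was at 1.49, 1.77 and 2.37 CPM in EpiLC KO and 0.56, 0.26 and 0.53 CPM in EpiLC WT, and rose by 2.02 ± 0.406 (adjusted p = 0.00666). KO and WT did not overlap for any of the 3. They were named for small adjusted p in this same comparison, so the lack of overlap adds no support. The calls of Dkk1, Sox17, Tcf7l2, Tle1 and Sp8 passed under each of the 11 alternatives run. The ligands Wnt5a (2.30 ± 0.522 on the log2 scale), Wnt9a (1.07 ± 0.252) and Wnt10a (1.35 ± 0.402) rose, as did the receptors Fzd10 (1.46 ± 0.444) and Fzd5 (0.32 ± 0.0981). The coreceptor gene Ror2 (-0.69 ± 0.159), Sfrp4 (-1.02 ± 0.296), Tle2 (-1.59 ± 0.435) and Tle5 (-0.82 ± 0.227) fell. The call of Wnt5a ended without EpiLC WT replicate 3 (adjusted p = 0.0519) and those of Wnt9a and Ror2 without EpiLC KO replicate 1 (0.0585 and 0.0633). That of Wnt10a ended without any EpiLC library (adjusted p up to 0.154), that of Fzd10 without any but EpiLC WT replicate 1 (up to 0.141), and those of Fzd5 and Sfrp4 without any but EpiLC WT replicate 2 (up to 0.157 and 0.115). Among the nuclear cofactors, Tle2 and Tle5 lost their calls when EpiLC KO replicate 1 or 3 was left out, or replicate 2 of EpiLC WT, and 3 cofactors were then called, Tcf7l2, Sox17 and Tle1. When only the EpiLC libraries were fitted, Ror2 (adjusted p = 0.0684), Fzd10 (0.0898), Fzd5 (0.121) and Wnt10a (0.0548) no longer passed. With low-count genes kept, Wnt9a (0.0535), Wnt10a (0.105) and Fzd5 (0.176) did not, and with DESeq2 Wnt10a (0.0828) did not. Of the destruction complex, edgeR called 0 of 19, with 2 at an unadjusted p under 0.05, and DESeq2 called 1, as did edgeR without EpiLC WT replicate 2.

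**Figure D5:**
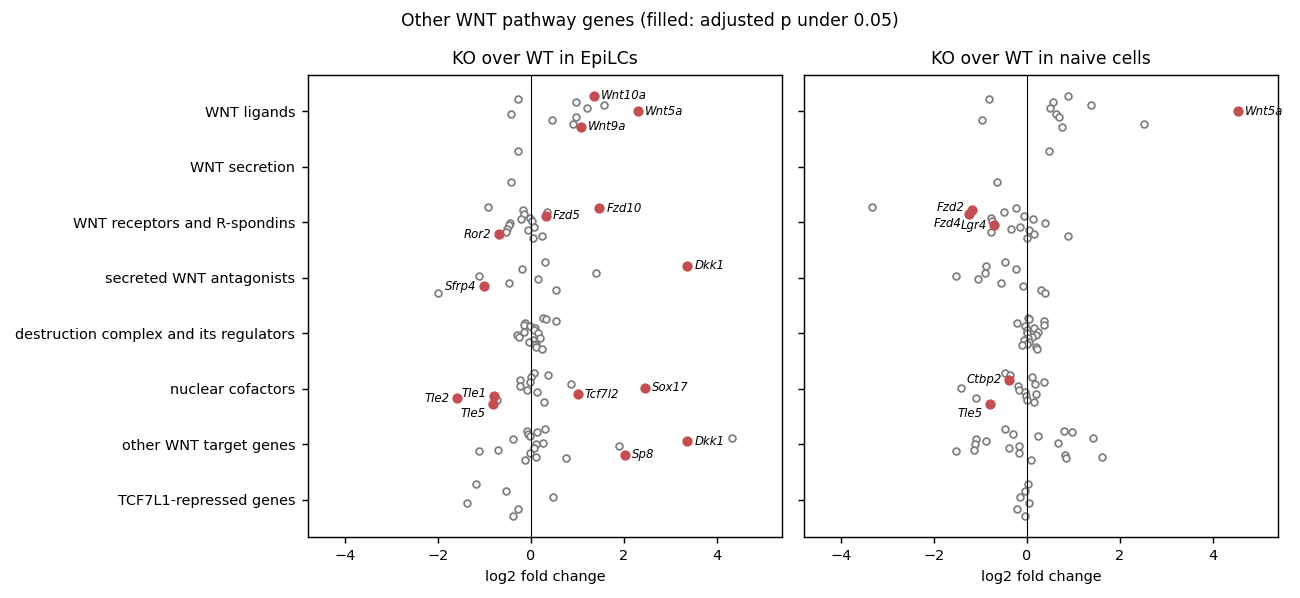
Log2 fold change of KO over WT for tested pathway genes, by list, in EpiLCs on the left and naive cells on the right, with filled points where the edgeR adjusted p was under 0.05. Of the filled points, Dkk1 and Sox17 lie furthest to the right in EpiLCs and Fzd4 furthest to the left in naive cells. Points that were not called reach 4.33 in EpiLCs and -3.34 in naive cells. Dkk1 appears in the 2 lists that hold it. The naive point of Wnt5a rests on 1 read in naive WT, so its size is unreliable.

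In naive cells 1 pathway gene rose in KO and 5 fell (6.06%, against 9.23% of all tested genes). Fzd4, a Frizzled receptor, was at 3.18, 3.04 and 3.72 CPM in naive KO and 8.30, 7.27 and 8.02 CPM in naive WT, without overlap, and fell by 1.25 ± 0.153 on the log2 scale (edgeR adjusted p = 4.99e-04). Fzd2 fell by 1.19 ± 0.287 (adjusted p = 0.0224), Lgr4, an R-spondin receptor and relative of Lgr5, by 0.70 ± 0.156 (0.0151), Tle5 by 0.81 ± 0.225 (0.0421) and Ctbp2 by 0.39 ± 0.101 (0.0317), and naive KO libraries bore on each of these calls. Without naive KO replicate 1, none of the 4 passed (adjusted p of 0.0899, 0.055, 0.159 and 0.114). The call of Fzd2 also ended without naive KO replicate 2 (0.0752) or naive WT replicate 3 (0.072) and when only the naive libraries were fitted (0.0761), that of Ctbp2 without naive WT replicate 1 (0.0786) or 3 (0.0933), and that of Tle5 without any other naive library but naive KO replicate 2 (0.0675 to 0.105). Wnt5a had 16, 13 and 3 reads in naive KO and 1, 0 and 0 reads in naive WT (adjusted p = 0.0171). Leaving out naive KO replicate 1 (0.0676) ended this call, and so did leaving out replicate 2 (0.0547) or 3 (0.0723) of naive WT.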

How the data were processed

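The authors deposited raw read counts per gene for all 12 libraries in a single table, with no normalization. Per the file headers, featureCounts 2.0.1 counted reads on the GENCODE vM25 annotation with no option shown for strand, multi-mapping or reads over several genes, so by its defaults strand was ignored and shared reads were not counted. Per the submitters' processing notes, fastp, FastQC, STAR and DESeq2 were also used, on GRCm38. The deposited exon length per gene, another value in bp per the file headers, served only for CPM per kb. Symbols were matched to GENCODE identifiers. Counts were scaled by TMM in edgeR 4.0.16 (R 4.3.3), genes kept by filterByExpr (minimum count 10, total 15), and all 12 libraries fitted by the quasi-likelihood test with 8 residual degrees of freedom. A gene was called at a Benjamini-Hochberg adjusted p under 0.05 over 18134 genes, and every adjusted p without another name is from this fit. SE is the log2 fold change divided by the root of its F statistic. Interaction means the EpiLC over naive change in KO minus that in WT.

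Alternatives were RLE scaling, no filter, DESeq2 1.42.0, fits of only the groups compared, a replicate block and leaving out each library. Same-numbered EpiLC and naive libraries of a genotype deviated together from their group means (r of 0.145 to 0.264 across genes in all 6 cases, all above 0.1), so numbers were taken to mark clones there. KO and WT numbers did not (r of -0.266 to 0.004). Genes named beyond the 9 members were, for each pathway list and comparison, up to 3 called genes with the smallest adjusted p, and for pattern likeness the 2 with the highest r. T, Esrrb, Znrf3, Rnf43, and Tle2 and Tle5 in EpiLCs were named after their values were seen. The members and lists were chosen with earlier results of these data known, and list counts are descriptions. The labels call the clones independent. Lack of overlap between groups only describes the values of a gene, and its share over all tested genes was not counted. Intervals of 95% are the log2 fold change plus or minus its SE times the t quantile at 8 residual degrees of freedom. They are wider than the quasi-likelihood test implies. Upstream sequences are RefSeq's on GRCm38.p6. The result of 1 further pathway gene is not reported or plotted here.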

Additional observations from a re-analysis of the deposited data

Results flagged for a closer look

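For 3 of 99 tested pathway genes (3.03%, against 0.381% of all tested genes) the difference between KO and WT itself differed between the media, by the interaction term of the edgeR fit (quasi-likelihood test, adjusted p under 0.05). The interaction was 4.24 on the log2 scale for Dkk1 (adjusted p = 0.0482), 3.86 for Sox17 (adjusted p = 0.0478) and 1.09 for Fzd4 (adjusted p = 0.0498). Dkk1 was at 2.30, 3.28 and 1.97 CPM in EpiLC KO and 0.13, 0.49 and 0.13 CPM in EpiLC WT, but at 0.92, 0.19 and 1.17 CPM in naive KO and 1.44, 1.54 and 1.22 CPM in naive WT. Sox17 was at 0.85, 1.48 and 1.13 CPM in EpiLC KO and 0.11, 0.34 and 0.20 CPM in EpiLC WT, and had 3, 1 and 3 reads in naive KO and 5, 6 and 8 reads in naive WT. Fzd4 was at 13.2, 15.1 and 14 CPM in EpiLC KO and 15.4, 16.1 and 15.4 CPM in EpiLC WT, against 3.18, 3.04 and 3.72 CPM in naive KO and 8.30, 7.27 and 8.02 CPM in naive WT. Of the 8 endoderm markers, 3 were called for the interaction too, all as higher, and Sox17 is among the 8 listed. Their summed level was 35.2 to 46.7 CPM in EpiLC KO, 7.09 to 14.2 CPM in EpiLC WT, 1.87 to 4.55 CPM in naive KO and 2.69 to 13.5 CPM in naive WT, and their part in the result was not tested. All 3 pathway genes were near the threshold. Without EpiLC WT replicate 2 the interaction of Dkk1 was 5.08. With the clone as a block, Dkk1 (4.42) and Sox17 (3.86) no longer passed (adjusted p = 0.0526 for each), and without low-count filtering Fzd4 did not (1.07, adjusted p = 0.0817). Leaving out a single library ended the call of Dkk1 in 10 of 12 cases, of Sox17 in 10 and of Fzd4 in 9.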

How the results depend on the processing

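The calls of Axin2, Sp5, Cdx1, Lef1 and Nkd1 between EpiLC and naive cells kept their direction and passed in both genotypes under all 11 alternatives run for each. The number of the 9 genes called between EpiLC KO and EpiLC WT was 0 with no filter on low counts and 0 when only these groups were fitted, and 0 to 1 when single libraries were left out. Between naive KO and naive WT it was 1 with no filter, by Tcf7l1, and 0 to 1 without single libraries. With no filter more genes share the correction, and a fit of only the groups compared has fewer libraries. With the replicate number or clone as a block the counts of genes called were 6 between EpiLC KO and naive KO, 6 between EpiLC WT and naive WT (Tcf7 added), 1 between EpiLC KO and EpiLC WT, 0 between naive KO and naive WT, and 0 for the interaction. The block ended the interaction calls of Dkk1 and Sox17 and, among KO against WT in EpiLCs, where the numbers pair no samples, those of Wnt10a (adjusted p = 0.0556) and Fzd5 (0.0685). Over all genes tested, the interaction was called for 69 genes, against 564 with no filter, 509 with DESeq2, 228 with the clone as a block and 3 to 149 without single libraries. KO against WT was called in naive cells for 1673 genes, against 2516 with DESeq2 and 678 to 1744 without single libraries, and in EpiLCs for 2734, against 1375 to 3117 without single libraries. Only differences that were not called changed sign, 17 in all, each when a single library was left out. Their ranges over left-out libraries, on the log2 scale, were -0.020 to 0.12 for Ctnnb1 between EpiLC WT and naive WT and -0.097 to 0.017 for Tcf7l1 between EpiLC KO and naive KO. For KO against WT in naive cells they were -0.41 to 0.44 for Sp5, -0.16 to 0.12 for Tcf7 and -0.30 to 0.25 for Nkd1, and in EpiLCs -0.43 to 0.59 for Cdx1 and -0.35 to 0.0023 for Tcf7. For the interaction they were -0.23 to 0.42 for Axin2, -0.045 to 1.09 for Cdx1, -0.39 to 0.024 for Tcf7 and -0.52 to 0.033 for Nkd1. Depth limits Sp5, Cdx1 and Lgr5 in EpiLCs, which leaves the differences between KO and WT imprecise there. Single EpiLC libraries held 3 to 14 reads of Sp5, 3 to 14 of Cdx1 and 1 to 18 of Lgr5.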

Other observations

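Znrf3 and Rnf43 encode membrane ubiquitin ligases that remove WNT receptors, and both are targets of the pathway in other tissues. Rnf43 was at 0.149 ± 0.0813 CPM in EpiLC KO and 2.38 ± 1.63 CPM in naive KO, and at 0.149 ± 0.106 CPM in EpiLC WT and 2.67 ± 1.02 CPM in naive WT (SD, n = 3 each). The EpiLC libraries held 2 to 10 Rnf43 reads and the naive libraries 43 to 142, without overlap. Rnf43 fell by 3.93 ± 0.622 on the log2 scale in KO (SE, edgeR adjusted p = 1.69e-04) and fell by 4.07 ± 0.637 in WT (adjusted p = 1.74e-04). Znrf3 lay between 25.9 and 27.9 CPM in EpiLC KO, 27.2 and 31.6 CPM in EpiLC WT, 27.0 and 33.8 CPM in naive KO and 26.1 and 30.2 CPM in naive WT. Its log2 difference between the media was -0.14 ± 0.120 in KO (adjusted p = 0.337) and 0.08 ± 0.120 in WT (adjusted p = 0.623).

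For each of the 9 members, 23 to 66 other tested genes with a mean log2 CPM above 3 started within 5 Mb on either side. Their median log2 fold change lay between -0.17 and 0.18 in the 4 comparisons of groups.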
